A study of Rattus norvegicus with 9 samples.

Results

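AMPA and kainate receptors are the ion channels that carry fast excitatory signals between neurons when glutamate binds. The genes studied here are the AMPA receptor subunits Gria1 to Gria4 and the kainate receptor subunits Grik1 to Grik5, measured in the cerebral cortex of rat pups. They were taken as every probe set whose platform annotation gives exactly 1 gene symbol from that list of 9, which found 13 of the 31099 probe sets on the array (9 of 14218 gene symbols) and at least 1 for each gene. Gria4 has 3 probe sets, Gria2 and Gria3 have 2 each, and the other 6 genes have 1.

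AMPA receptors are built from GluA subunits encoded by the Gria genes, and they carry most of the current at a resting excitatory synapse. The GluA2 subunit, encoded by Gria2, keeps calcium out of the channel once its transcript has been edited by an adenosine deaminase, so the balance of GluA2 with the other subunits sets how much calcium enters. Kainate receptors are built from GluK subunits: those encoded by Grik1, Grik2 and Grik3 can form channels by themselves, while those encoded by Grik4 and Grik5 need one of them as a partner. Both receptor types are already made by the immature cortex, where kainate receptors are known for tuning transmitter release and network activity.

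Hsd:Sprague Dawley SD rats ate 4-methylimidazole (4-MeI), a small nitrogen heterocycle formed when food browns, in a continuous breeding study over several generations, and the series title also names maternal seizures. The cortex was dissected on postnatal day 4 from F2b pups, 1 for each litter, in a control group (0 ppm in the diet), a 750 ppm group and a 2500 ppm group. Each group has 3 biological replicates with 1 Affymetrix rat genome array apiece, and all groups share strain, age and tissue. The sex of the pups, whether RNA of several pups was pooled and which dams had seizures are not given in the sources used here, so p-values measure the spread between these samples only. All values below are log2 intensities, so a difference of 1 is a doubling; they carry no detection call, and levels of different probe sets are not compared.

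The array medians lay between 7.67 and 7.71. Among markers of cortical excitatory neurons, Neurod6 averaged 13.07 and the vesicular glutamate transporter gene Slc17a7 9.26 in controls. Tbr1, at 6.01, was too dim to be tested. Such levels do not verify the tissue label, since striatal marker genes also gave readings, such as Pde10a at 11.35 in controls. A probe set was tested when its mean over the 9 arrays lay above the lowest 30% (a log2 value of 6.35). Of the 13 receptor probe sets 12 passed, and the 1 left out was that of Grik3. Differences were fitted in limma on all 21729 probe sets that passed, with Benjamini-Hochberg adjustment over all of them and a threshold of 0.05. No receptor probe set passed that threshold in any of the 3 comparisons.

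The bases before the start of Grik2 are shown because it had the largest difference among the receptor genes, and those of Grik3 because its window held the most GC boxes of the 6 receptor genes with an entry, a choice made after the windows were seen. They come from RefSeq on GRCr8, run 5′ to 3′ on the strand of the gene and end at its annotated start. The Grik2 window is chr20:54415284-54415533 on the minus strand and the Grik3 window chr5:143052192-143052441 on the plus strand, each 250 bases long. Capitals mark the GC box GGGCGG on either strand, a sequence bound by Sp-family factors.
Grik2: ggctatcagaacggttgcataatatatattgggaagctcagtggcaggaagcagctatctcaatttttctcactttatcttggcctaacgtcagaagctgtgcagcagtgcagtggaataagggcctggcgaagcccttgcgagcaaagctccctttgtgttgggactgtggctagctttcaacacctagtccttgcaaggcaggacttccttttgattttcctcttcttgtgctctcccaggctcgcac
Grik3: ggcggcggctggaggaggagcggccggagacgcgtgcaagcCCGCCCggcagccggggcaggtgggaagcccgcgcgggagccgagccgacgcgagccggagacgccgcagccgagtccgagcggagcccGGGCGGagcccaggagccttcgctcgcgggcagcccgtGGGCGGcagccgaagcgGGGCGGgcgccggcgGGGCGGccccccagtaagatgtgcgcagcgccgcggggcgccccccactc
The Grik2 window held 0 GC boxes and 5 CpG pairs at 49.6% GC, and the Grik3 window 5 GC boxes and 41 CpG pairs at 81.6% GC. Among all 33469 promoters of the table, 30.5% held a GC box, and the medians were 5 CpG pairs and 51.2% GC. The TATA box TATAAA (12.9% of promoters) and the cyclic AMP response element TGACGTCA (1.59%) were in neither window, which says only that those letters are missing from these bases. Of the 9 genes, 6 had an entry in that table.

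Among the AMPA receptor genes, the cortex of pups at 2500 ppm differed from control most in Gria1, which encodes the GluA1 subunit that is inserted into synapses during plasticity. Its probe set (1371013_at; the gene lies on chromosome 10 from 41710540 to 42030105 in GRCr8) read 9.14, 9.27 and 9.31 in the controls, 9.22, 9.45 and 9.03 at 750 ppm, and 8.66, 8.81 and 8.64 at 2500 ppm. Every 2500 ppm array lay below every other array. The difference from control was -0.54 (SE 0.10, 95% interval -0.77 to -0.30, n = 3 against 3), an intensity 1.45-fold lower, with a limma p of 0.000579 and an adjusted p of 0.0585. Against 750 ppm it was -0.53 (SE 0.10, adjusted p = 0.0843), while 750 ppm and control differed by -0.0076 (SE 0.10, adjusted p = 0.987).

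Because these are samples of whole tissue, fewer cells of a type and less RNA per cell cannot be told apart. The arrays of the 750 ppm group also shape the estimate of the spread used for Gria1. Leaving out one of them cannot change the difference between 2500 ppm and control itself. Without 750 ppm replicate 2 or replicate 3, the limma adjusted p of that difference was 0.0304 and 0.0230. The call was then made, but not without any of the other 7 arrays, where the highest adjusted p was 0.179. Against 750 ppm, Gria1 passed only without 750 ppm replicate 3 among the single arrays left out (-0.63, adjusted p = 0.0112).

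Gria2, the gene of the calcium-limiting GluA2 subunit (chromosome 2 from 168247490 to 168367616), is read by 2 probe sets, and both were lower at 2500 ppm by smaller amounts. The brighter one (1368401_at) read 13.17, 13.13 and 13.01 in controls, 13.19, 13.33 and 13.02 at 750 ppm, and 12.99, 12.91 and 12.74 at 2500 ppm. The other (1387171_at) read 11.81, 11.91 and 11.59 in controls, 12.12, 12.04 and 11.75 at 750 ppm, and 11.69, 11.50 and 11.38 at 2500 ppm. On the brighter probe set the 2500 ppm arrays all lay below the controls, although the highest of them (12.99) came close to the lowest control (13.01), and on the other they overlapped them.

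The Gria2 differences from control at 2500 ppm were -0.22 with an SE of 0.094 and -0.25 with an SE of 0.12 (limma adjusted p = 0.286 and 0.362 in turn). Against 750 ppm they were -0.30 and -0.45 (limma adjusted p = 0.255 and 0.198), and the arrays did not overlap on either probe set. At 750 ppm the Gria2 means stood 0.079 and 0.20 above control, with 95% intervals from -0.13 to 0.29 and from -0.079 to 0.48. The 2 probe sets therefore gave the same sign in all 3 comparisons.

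Gria3, on the X chromosome from 125103975 to 125369690, gave different estimates at 2500 ppm on its 2 probe sets, with 95% intervals that overlapped. A difference between the probe sets was not tested. On the brighter one (1376892_at) the controls read 11.46, 11.60 and 11.51, the 750 ppm arrays 11.54, 11.55 and 11.62, and the 2500 ppm arrays 11.68, 11.51 and 11.40, so all 3 groups overlapped. Its difference at 2500 ppm was 0.0053 with a 95% interval from -0.17 to 0.18. On the other (1368691_at) the controls lay between 9.96 and 10.09, the 750 ppm arrays between 9.73 and 10.24, and the 2500 ppm arrays between 9.70 and 9.86, all below the controls, with a difference of -0.25 (95% interval -0.53 to 0.025, adjusted p = 0.357). The annotation does not say which transcripts either probe set reads.

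Gria4 encodes the GluA4 subunit, known from early synapses and from fast interneurons. Its brightest probe set (1383707_at) read 10.66, 10.51 and 10.96 in controls, 10.49, 10.45 and 10.57 at 750 ppm, and 10.63, 10.64 and 10.87 at 2500 ppm. The other 2 covered 8.52 to 9.03 (1396696_at) and 6.65 to 7.27 (1369384_at) over the 9 arrays. All 3 probe sets averaged lower than control at 750 ppm, by -0.21, -0.20 and -0.11 with adjusted p between 0.538 and 0.785, and control overlapped 750 ppm on each. At 2500 ppm they stood at 0.0031, -0.073 and -0.069 from control, with 95% intervals within -0.38 and 0.26. On the brightest one the 2500 ppm arrays all lay above the 750 ppm arrays (difference 0.21, 95% interval -0.047 to 0.47, adjusted p = 0.488), the opposite order to Gria1 and Gria2.

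**Figure D1:**
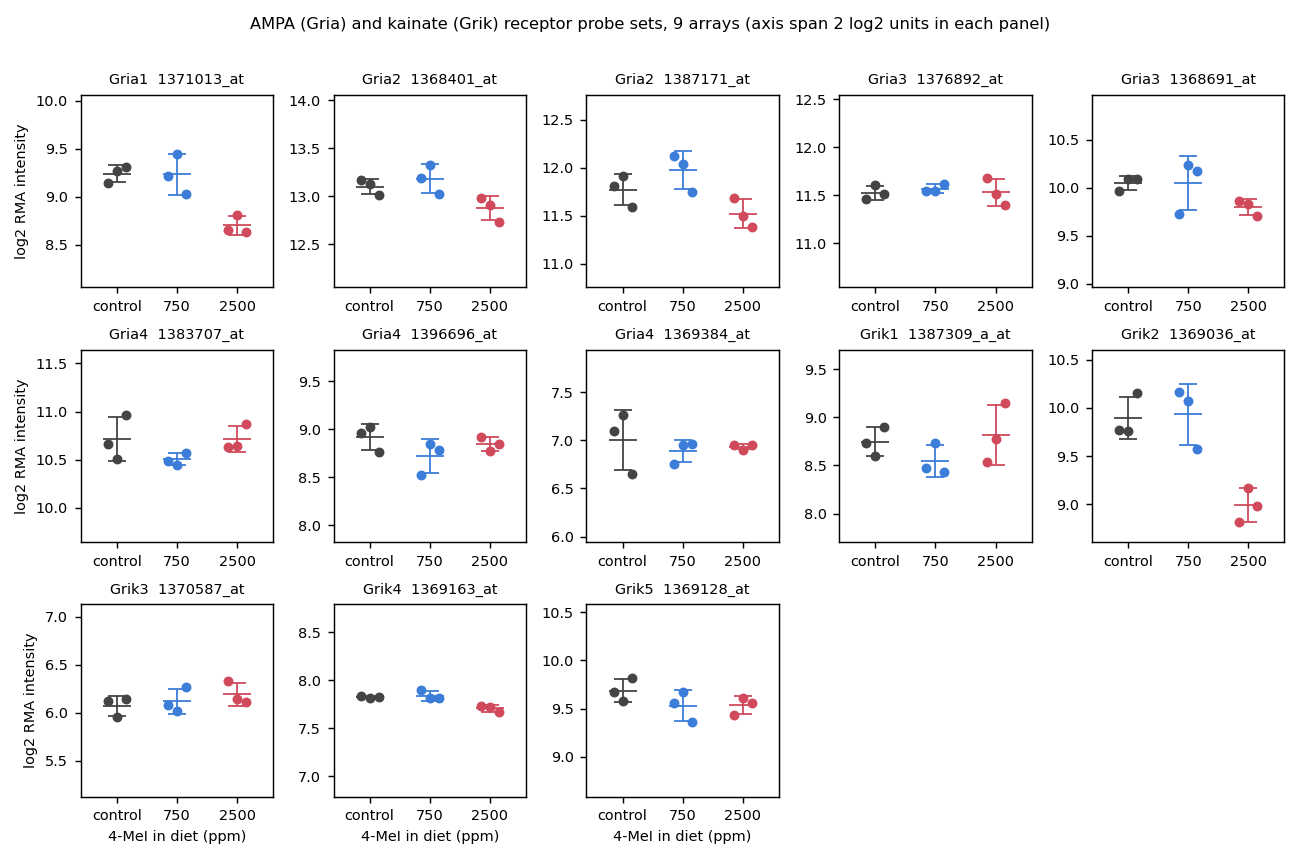
Log2 RMA intensity of the 13 receptor probe sets (vertical axes, each spanning 2 log2 units) in the control, 750 ppm and 2500 ppm groups (horizontal axes); points are single arrays, long bars the group mean and whiskers the SD (n = 3). The 2500 ppm arrays of Grik2 sit between 8.82 and 9.17 and those of Gria1 between 8.64 and 8.81, below all other arrays, while Grik1, Grik3, Grik5 and the brighter Gria3 probe set overlap between groups.

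Of the kainate receptor genes, Grik2 stood farthest from control. It encodes GluK2, the main channel-forming kainate subunit of forebrain principal neurons, and lies on chromosome 20 from 53717564 to 54415283. Its probe set (1369036_at) read 9.78, 9.76 and 10.15 in controls, 10.16, 10.07 and 9.57 at 750 ppm, and 8.82, 9.17 and 8.98 at 2500 ppm. Each 2500 ppm array lay below all 6 others, and 750 ppm replicate 3 was the lowest of those 6.

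The Grik2 difference between 2500 ppm and control was -0.91 (SE 0.17, 95% interval -1.29 to -0.53), a 1.88-fold lower intensity, with a limma p of 0.000412 and an adjusted p of 0.0553. Against 750 ppm it was -0.95 (SE 0.17, adjusted p = 0.0639), and 750 ppm differed from control by 0.038 (95% interval -0.34 to 0.42, adjusted p = 0.954). Without 750 ppm replicate 3 the difference from control had an adjusted p of 0.0152 and that from 750 ppm was -1.13 with an adjusted p of 0.00588. Leaving out any other single array gave no call for Grik2, with an adjusted p of up to 0.167 against control and 0.207 against 750 ppm.

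Grik1 and Grik3 encode the other channel-forming subunits. Grik1, which is known from inhibitory neurons (1387309_a_at), read 8.74, 8.60 and 8.90 in controls, 8.47, 8.73 and 8.43 at 750 ppm, and 8.53, 8.78 and 9.15 at 2500 ppm, and all groups overlapped. Its difference from control was 0.073 at 2500 ppm (95% interval -0.27 to 0.42) and -0.20 at 750 ppm (95% interval -0.55 to 0.14). Grik3 (1370587_at) read 6.12, 5.95 and 6.14 in controls, 6.08, 6.01 and 6.26 at 750 ppm, and 6.33, 6.14 and 6.11 at 2500 ppm. At a mean of 6.13 it was under the limit for testing, and in a fit of all 31042 probe sets without controls its difference at 2500 ppm was 0.12 (95% interval -0.085 to 0.33). The interval of Grik2 at 2500 ppm lay wholly below those of Grik1 and Grik3, although the difference between the genes was not itself tested.

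Grik4 and Grik5 encode the high-affinity partner subunits. Grik4 (1369163_at) varied least, with readings of 7.83, 7.81 and 7.82 in controls, 7.90, 7.81 and 7.81 at 750 ppm, and 7.73, 7.72 and 7.67 at 2500 ppm. Its 2500 ppm arrays lay below all others by a small margin, with a difference of -0.12 from control (limma adjusted p = 0.332) and of -0.13 from 750 ppm (limma adjusted p = 0.357), each with an SE of 0.054. Grik5 (1369128_at), the more widely expressed partner, read 9.67, 9.58 and 9.81 in controls, 9.56, 9.68 and 9.36 at 750 ppm, and 9.43, 9.61 and 9.56 at 2500 ppm. It overlapped in every comparison and differed from control by -0.15 at 2500 ppm (95% interval -0.37 to 0.067) and by -0.16 at 750 ppm (95% interval -0.38 to 0.060).

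Counted over the family, limma called 0 of 12 tested receptor probe sets at 2500 ppm against control, where 0.686% of all tested probe sets were called. At an unadjusted p under 0.05 there were 3 (Gria1, Grik2 and the brighter Gria2 probe set), all lower, against 9.12% lower of all probe sets. In 5 of 12 the 2500 ppm arrays all lay below the controls, against 13.4% of all: those 3, 1 Gria3 probe set and Grik4. The sign was negative in 9 of 12, against 47.8% of all, and the median difference was -0.13 against 0.0070 over all tested. The 12 probe sets stand for 8 genes, and those of 1 gene are not independent.

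Between 2500 ppm and 750 ppm, limma again called 0 of 12, with 0.322% of all probe sets called. At an unadjusted p under 0.05, 5 were lower against 7.33% of all: Gria1, both Gria2 probe sets, Grik2 and Grik4. The same 5 had no overlap between arrays in that direction, against 9.52% of all, and 1, of Gria4, had none in the other direction, against 7.88%. Here 7 of 12 differences were negative, against 52.1%, with a median of -0.086 against -0.0063. This comparison and that with control share the 2500 ppm arrays, so they are not separate evidence.

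At 750 ppm against control, limma called 0 of 12 receptor probe sets, where 0.0092% of all were called. There were also 0 at an unadjusted p under 0.05 against 10.1% of all, and 0 without overlap between arrays against 14.2%. The difference was negative in 7 of 12, against 49.1%, with a median of -0.0055 against 0.0023. The largest difference in either direction was -0.21, in Gria4.

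**Figure D2:**
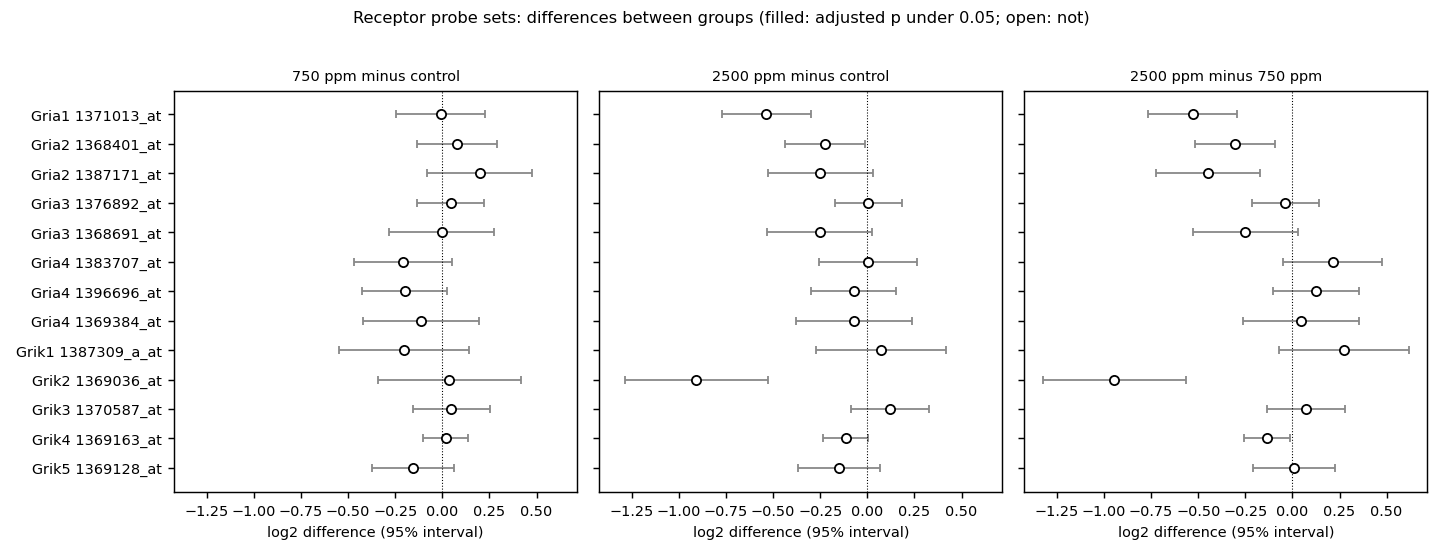
Log2 difference (horizontal axes) of each receptor probe set (rows) in the 3 comparisons, with bars for the 95% interval from the limma fit; filled points would have an adjusted p under 0.05, and none does. Grik2 and Gria1 have the lowest values at 2500 ppm, -0.91 and -0.54 against control, and all intervals at 750 ppm against control include 0.

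Differences between subunits within an array were taken for 3 pairs after the values had been seen, each relative to its mean over the 9 arrays. Gria1 minus Gria2 (brighter probe set) was -0.028, 0.14 and 0.29 in controls and -0.33, -0.10 and -0.10 at 2500 ppm, a difference of -0.31 without overlap. At 750 ppm it was 0.022, 0.12 and 0.00069, which overlapped the controls. The other Gria2 probe set was not used for this pair. Grik2 minus its partner Grik5 was 0.083, 0.16 and 0.32 in controls, 0.58, 0.37 and 0.19 at 750 ppm, and -0.64, -0.46 and -0.61 at 2500 ppm. Its shift from control to 2500 ppm was -0.76, and that of Grik2 minus Gria1 was -0.37. For each of the 3 pairs the 2500 ppm arrays lay below all controls. Since the pairs were picked for genes already seen to be low, these values are a description and no test is given.

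Marker genes of tissue that borders the cortex also differed between the arrays. The mean of 14 measured striatal genes, of 15 listed, relative to its mean over all arrays was 0.56, 0.23 and 0.33 in controls, 0.55, 0.42 and -0.75 at 750 ppm, and -0.77, -0.085 and -0.48 at 2500 ppm. Its genes had mean levels from 6.70 to 10.98; 13 of 14 were lower at 2500 ppm than in control (47.8% of all tested probe sets were), 8 of them at an unadjusted p under 0.05 (9.12% of all), with a median of -0.97. Of the lower ones, Rgs9, Gpr6 and Adcy5 were near 0 at -0.032, -0.018 and -0.0047, and the higher gene was Rasd2 at 0.042. At 750 ppm 10 of the 14 striatal genes were lower (49.1% of all tested probe sets were), with a median of -0.39. The order of the arrays within a group was shared in some cases and not in others. At 2500 ppm, Grik2 and the striatal mean were both lowest in replicate 1 and highest in replicate 2. Gria1 was also highest in replicate 2, with replicates 1 and 3 close together at 8.66 and 8.64. Both Gria2 probe sets were highest in replicate 1. At 750 ppm, Grik2, Gria1, both Gria2 probe sets and the striatal mean were all lowest in replicate 3, where Grik2 read 9.57 and the striatal mean -0.75. In controls the striatal mean was highest in replicate 1 and Grik2 in replicate 3.

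With the striatal mean as a covariate, the difference between 2500 ppm and control was -0.56 in Grik2 (unadjusted p = 0.00474, adjusted p = 0.195) and -0.37 in Gria1 (unadjusted p = 0.0120, adjusted p = 0.257) in the limma fit, compared with -0.91 and -0.54 without it. The Gria2 values went to -0.11 on both probe sets. The striatal mean itself did not overlap between control and 2500 ppm arrays. This fit therefore cannot separate the share of striatal tissue from an effect of dose. Of 9 interneuron genes measured among 12 listed, 6 were lower at 2500 ppm (2 at an unadjusted p under 0.05, against 9.12% of all), with a median of -0.51. The lower ones were Gad1, Gad2, Slc32a1, Sst, Dlx1 and Dlx5, while Npy, Calb2 and Reln were higher by 0.30, 0.086 and 0.063. The list was not shown to tell cortical interneurons from striatal neurons. Its array means were 0.14, 0.087 and 0.24 in controls against -0.34, -0.17 and -0.23 at 2500 ppm. On 750 ppm replicate 3 the mean was lower still at -0.49. The 11 tested excitatory markers had a median of 0.17 at 2500 ppm with 6 higher and 5 lower. Of these, 3 fell with an unadjusted limma p below 0.05: Foxp2 (-0.84), Bcl11b (-0.60) and Rorb (-0.44). Another 2, Emx1 (0.58) and Cux2 (0.38), rose with a p that low. Among all tested probe sets, 9.12% fell and 6.89% rose at that level. The 8 markers of all neurons had a median of 0.036, and none reached it.

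Markers of the linings of the brain were higher than in control, those of the meninges in both groups and those of the choroid plexus mainly at 2500 ppm. All 7 tested choroid plexus and ependymal genes were higher at 2500 ppm, each at an unadjusted p under 0.05 (6.89% of all tested probe sets were), with a median of 0.82 and array means of 1.59, 1.45 and 0.24 against -0.62, -0.77 and -0.67 in controls. At 750 ppm their median was -0.011, with 3 of 7 higher, among them Ttr at 1.33 (limma adjusted p = 0.511). The array means of this list at 750 ppm were -0.43, -0.28 and -0.53, all above the controls. All 11 tested meningeal genes were higher in both groups, with a median of 1.26 at 750 ppm and 0.85 at 2500 ppm, each at an unadjusted p under 0.05 (5.77% of all tested probe sets were higher at 750 ppm). Their array means were -0.14, -0.72 and -1.24 in controls, 0.64, 0.49 and 0.35 at 750 ppm, and -0.038, 0.26 and 0.41 at 2500 ppm. The 7 endothelial genes were also all higher in both groups (medians 0.51 at 750 ppm and 0.39 at 2500 ppm). At an unadjusted p under 0.05 there were 5 at 750 ppm (5.77% of all) and 6 at 2500 ppm (6.89% of all). The 8 astrocyte genes had a median of -0.0062 at 2500 ppm. The 4 hippocampal genes had a median of 0.0087 there, with 2 higher (1 at an unadjusted p under 0.05, 6.89% of all) and 2 lower. Their mean on 750 ppm replicate 3 was -0.28. All 7 tested microglial genes were higher at 2500 ppm, with a median of 0.14 and 1 at an unadjusted p under 0.05 (6.89% of all). At 750 ppm 6 of these 7 were higher, with a median of 0.32 and 3 at an unadjusted p under 0.05 (5.77% of all). The part of these tissues in the receptor readings was not tested, and the striatal covariate fit cannot settle it.

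**Figure D3:**
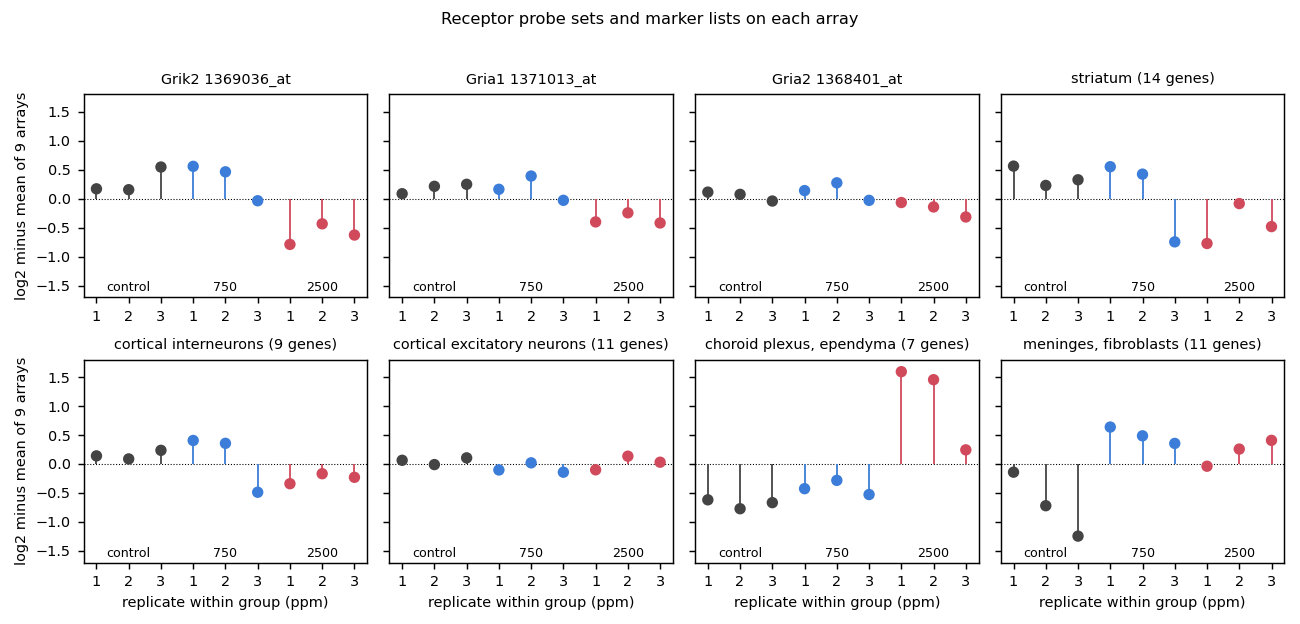
Deviation from the mean of the 9 arrays (vertical axis, log2) of Grik2, Gria1, the brighter Gria2 probe set and the means of 5 marker lists on each array (horizontal axis, replicates 1 to 3 in control, 750 ppm and 2500 ppm). The striatal mean is below 0 on all 3 of the 2500 ppm arrays (-0.77, -0.085 and -0.48) and on 750 ppm replicate 3 (-0.75), and Grik2 and Gria1 are lowest on the 2500 ppm arrays.

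The proteins that accompany kainate receptors were described next, from lists chosen with earlier results known. Of 4 listed partners 3 were on the array, and each was lower at 2500 ppm at an unadjusted p under 0.05, against 9.12% of all tested probe sets. C1ql3, a secreted protein that clusters kainate receptors at hippocampal mossy fibre synapses, fell by 1.42 on the log2 scale (SE 0.10, adjusted p = 0.00304), from 10.34, 10.26 and 10.29 in controls to 9.05, 8.64 and 8.95, and passed under every alternative run (highest adjusted p 0.0313). Its other, dimmer probe set (1375500_at) was at 0.12 (adjusted p = 0.412). At 750 ppm C1ql3 stood at 10.38, 10.53 and 10.46.

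Neto2 and Neto1 encode transmembrane auxiliary subunits that slow the gating of kainate receptors. The dimmer Neto2 probe set (1384904_at) fell by 0.69 at 2500 ppm (adjusted p = 0.0266), with 10.31, 10.22 and 10.35 in controls, 10.10, 10.35 and 10.06 at 750 ppm, and 9.52, 9.77 and 9.51 at 2500 ppm. That call did not hold without control replicate 2 or 3 (adjusted p = 0.0728 and 0.0692) or without 2500 ppm replicate 1, 2 or 3 (adjusted p = 0.0905, 0.0577 and 0.0824), nor with the striatal covariate (-0.55, adjusted p = 0.136). On the brighter Neto2 probe set (1393729_at) the difference was -0.36 (SE 0.09, adjusted p = 0.0950). Neto1 was at -0.32 at 2500 ppm and at -0.40 at 750 ppm (limma adjusted p = 0.162 and 0.223, SE 0.099 for both), and its arrays lay below the controls in both groups.

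Among the AMPA receptor auxiliary and assembly proteins, 14 of 17 listed genes were tested, and 1 passed at 2500 ppm (0.686% of all tested probe sets did). Cacng4, which encodes a transmembrane AMPA receptor regulatory protein of immature brain and glia, fell by 0.40 (SE 0.07, adjusted p = 0.0437), from 8.52, 8.49 and 8.54 to 8.22, 8.08 and 8.05. At 750 ppm it already stood at 8.08, 8.26 and 8.21, a difference of -0.33 (SE 0.07, adjusted p = 0.201), with no array overlapping the controls. The Cacng4 call was lost without any 1 of the 3 control arrays (adjusted p = 0.0777, 0.123 and 0.101) or any 1 of the 2500 ppm arrays (adjusted p = 0.0771, 0.139 and 0.141). It was also lost after a second quantile normalization (adjusted p = 0.0669), after median-centring (adjusted p = 0.0510) and with the striatal covariate (-0.46, adjusted p = 0.134). Cacng3, Cacng8 and Cacng7 had differences of -0.24, -0.13 and 0.082 with adjusted p between 0.529 and 0.568, and the list's median was -0.037 with 9 of 14 below 0.

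Of 12 scaffold and trafficking genes, 0 passed in limma at 2500 ppm, where 0.686% of all probe sets passed. At an unadjusted p under 0.05, 2 were lower and 2 higher, against 9.12% and 6.89% of all, and the median was -0.0013. Akap5, which holds kinases and phosphatases beside GluA1, read 8.08, 7.79 and 7.97 in controls, 7.91, 8.46 and 6.82 at 750 ppm, and 5.86, 6.85 and 6.49 at 2500 ppm. Its difference was -1.55 (SE 0.38, limma adjusted p = 0.0976), and its lowest 750 ppm reading was in replicate 3, as in the striatal list. With the striatal covariate the difference was -0.64, but that covariate did not overlap between control and 2500 ppm arrays. The share of striatal tissue in the Akap5 readings was not tested. Grip1, a PDZ protein that binds GluA2, was at -0.34 (SE 0.09, adjusted p = 0.122) but at 0.11 on its other probe set. Sdcbp and Grip2 were higher by 0.20 each (adjusted p = 0.193 and 0.299).

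Proteins that gather AMPA receptors at synapses were represented by 4 of 10 listed genes, of which 0 passed in limma and 2 were lower at an unadjusted p under 0.05 (9.12% of all). The neuronal pentraxin gene Nptx1 was at -0.51 (SE 0.16, adjusted p = 0.180) and the olfactomedin gene Olfm1 at -0.19 (SE 0.07, adjusted p = 0.201), with -0.19 also on the other Olfm1 probe set. Nptxr and Olfm3 stood at 0.069 and 0.086. None of the 3 RNA editing genes passed in limma in any of the 3 comparisons. At an unadjusted p under 0.05 there were 0 at 2500 ppm against control (16% of all tested probe sets were). At 750 ppm against control 1, Adarb1, was lower (4.37% of all). Between 2500 ppm and 750 ppm 1, again Adarb1, was higher (5.25% of all). Adarb1, whose enzyme edits the Gria2 transcript, read 11.77, 11.81 and 11.83 in controls, 11.68, 11.67 and 11.69 at 750 ppm, and 11.85, 11.86 and 11.92 at 2500 ppm on its brightest probe set. The 3 Adarb1 groups did not overlap, in an order that did not follow dose, but the differences from control were -0.12 (adjusted p = 0.470) and 0.075 (adjusted p = 0.508), and another Adarb1 probe set was at -0.25 and -0.21. Between 2500 ppm and 750 ppm the brightest Adarb1 probe set differed by 0.20 (SE 0.051, limma adjusted p = 0.175) and that other probe set by 0.041. Editing itself is not measured by these arrays.

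**Figure D4:**
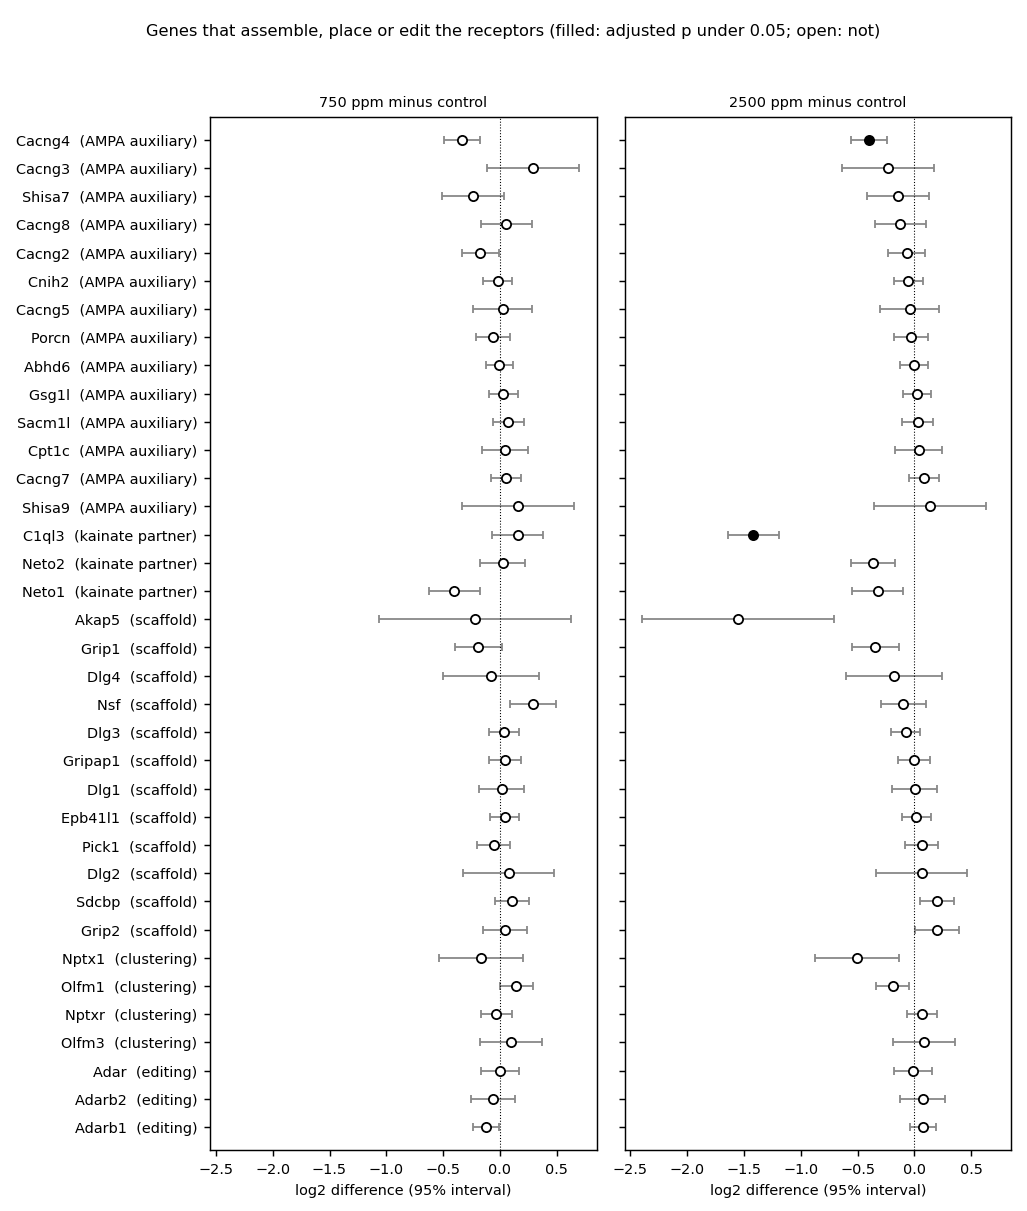
Log2 difference from control (horizontal axes) at 750 ppm and 2500 ppm for genes that assemble, place or edit the receptors (rows, the brightest probe set of each tested gene), with bars for the 95% interval; filled points have an adjusted p under 0.05. C1ql3 (-1.42) and Cacng4 (-0.40) are filled at 2500 ppm, and Akap5 (-1.55) has the widest interval.

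The probe sets of other genes whose readings most resembled each receptor gene over the 9 arrays were found by Pearson's r among 16137 tested probe sets with 1 symbol; with so many candidates and shared normalization, such values are a description of these arrays. The nearest to Grik2 were Cdh13 (r = 0.987), a cadherin without a cytoplasmic domain, and Rasgef1c (r = 0.974), with differences of -0.75 and -0.90 at 2500 ppm. The nearest to Gria1 were Pacsin1 (r = 0.972), a membrane-bending adaptor of endocytosis, and Spats2l (r = 0.959), with -0.61 and -0.59. For Grik4 the nearest was Dlg1 (r = 0.971), on a dimmer probe set than the one counted among the scaffold genes. At 2500 ppm the dimmer Dlg1 probe set differed from control by -0.21 and the brighter one by 0.0025. Nearest to Grik1 was the neuronal splicing factor gene Rbfox3 (r = 0.958). Gria2 was most like Krcc1 (r = 0.969), Gria4 like Tef (r = 0.972), Grik5 like Setd5 (r = 0.973) and Gria3 like Brap (r = 0.928).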

How the data were processed

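RNA from rat cortex was measured on 9 arrays, 3 per group, and the labels give the group of each. The deposited values are log2 intensities, 1 per probe set and array, made with affy and RMA per the submitters' processing notes, with no versions given. RMA normalizes by quantiles, which hides a change in total RNA.

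The 57 AFFX control probe sets and the lowest-mean 30% (9313) were left out. Using limma 3.58.1 (R 4.3.3), group means were estimated from all 9 arrays jointly and compared two-sided with moderated variances, after the code was tested on simulated data. Gene symbols came from the platform annotation (20826 probe sets with 1 symbol, 436 with several, 9780 with none), updated through Entrez identifiers to GRCr8, whose gene positions are given. Lists used the brightest probe set of each gene. The receptor genes, lists and naming rule were chosen with earlier results of these data known. By that rule all receptor genes were named, up to 4 genes per partner list by p at 2500 ppm, and the 2 genes most like each in pattern, of which the nearest or both are given. The replicate number, which the labels do not tie to a litter or batch, was not used in the main model. Alternatives were other filters, scalings, variance models, a striatal covariate and leaving out arrays.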

Additional observations from a re-analysis of the deposited data

How the results depend on the processing

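All 705 alternative values of the receptor probe sets lay on the same side of the threshold as the reported ones except 23, which passed. Under 20 alternatives the difference between 2500 ppm and control ranged from -0.998 to -0.558 in Grik2 and from -0.59 to -0.37 in Gria1. Against control at 2500 ppm, the number of receptor probe sets past the threshold went from 0 to 1 with an intensity trend and robust variances, 4 with array weights and 2 when only the 2 groups compared were fitted, and lay between 0 and 2 when single arrays were left out. Between 2500 ppm and 750 ppm it went from 0 to 1 with the trend, 4 with array weights, and 0 to 3 without single arrays. When 2 arrays were dropped jointly, the third control and the third at 750 ppm, an alternative chosen after seeing the data, these counts were 1 and 4. The cause was not tested. It was 0 at 750 ppm against control under every alternative run, and 0 in all 3 comparisons with no filter, a filter of 50%, both rescalings, 1 probe set per gene and the striatal covariate.

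Over all tested probe sets the count of 149 at 2500 ppm ranged from 9 (striatal covariate, or without 2500 ppm replicate 2) to 1495 (array weights), that of 70 between the doses from 13 (without 750 ppm replicate 1) to 1149 (the 2 arrays dropped jointly), and that of 2 at 750 ppm from 0 to 340 (array weights). Without 750 ppm replicate 3 the counts were 466, 731 and 48. With the replicate block these counts were 122, 36 and 2, 0 receptor probe sets passed and the Cacng4 call was not made (adjusted p = 0.0782); correlations of same-numbered arrays were between -0.21 and 0.31, and 2, 3 and 3 of 6 arrays matched their own number best, so the numbers were not taken as pairs. With 3 arrays a group, precision is set by their number; the values carry no detection call, so how far a probe set lies above background is not known.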

Other observations

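Some deposited values repeat exactly between arrays. The Grik4 probe set holds 1 value, 7.81, on control replicate 2 and 750 ppm replicates 2 and 3, and the dimmest Gria4 probe set holds 6.95 on 750 ppm replicate 2 and 2500 ppm replicates 1 and 3. Over all tested probe sets, 1926 (8.86%) have a value shared by 3 or more arrays. The residual SD of Grik4 was 0.037, at the 2.89th percentile of tested probe sets, against 0.25 for Grik2 at the 93.7th.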
